A study of Rattus norvegicus with 12 samples.

Results

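The baseline liver transcriptome of vehicle-treated rats was described in 4 arrays, chosen by the label of a control liver, out of 12 arrays in the series. Each array held RNA of 1 male Brown Norway rat, an inbred strain, of 150 to 170 g. The 4 rats had received water by oral gavage, had no drug, and were killed 6 h later. The other 8 rats of the series received D-penicillamine at 150 mg/kg and were not used here. The animals carried no transgene or other allele by the labels, were kept in pairs under a 12 h light cycle with chow, and the labels assign neither a cage nor a clock hour of killing to a rat. All 15866 probe sets of the Affymetrix RAE230A chip other than array controls, of 15923 in the table, were described by their mean signal and their spread between rats. The values are log2 signals, so a difference of 1 is a 2-fold difference. They cover 10411 named genes, each given by its probe set with the highest mean. Because probes differ in how well they bind, signals of different genes were not ranked as RNA amounts. A gene is instead called bright when its mean is at or above the median of all probe sets (6.33), very bright when it is at or above their upper quartile (7.59), and dim otherwise. Genes are given by their brightest probe set, so 6059 of the 10411 were bright, 3161 of them very bright. With 1 group there was no contrast, and no test was made between groups.

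The liver makes most proteins of blood plasma, stores and releases glucose, turns ammonia into urea, builds cholesterol and bile acids, and clears drugs through cytochromes P450. Hepatocytes do most of this work, and they divide it along the lobule: periportal cells, which meet the incoming blood, favour urea and glucose production, while pericentral cells favour glutamine synthesis and P450 reactions. Hormones set many of these genes within hours, among them insulin, glucagon, glucocorticoids and the pulses of growth hormone that give male rats their own set of P450 enzymes. In whole tissue a lower signal of a cell type's genes can come from fewer such cells or from less RNA per cell, which cannot be told apart here.

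Rat 3 stood apart from the other animals in a measure of RNA quality. The mean difference between the array's 3' and 5' probes for Gapdh and for beta-actin, larger when transcripts are shortened, was 1.19 in rat 3 and 0.495, 0.585 and 0.51 in rats 1, 2 and 4. Rat 3 was also the farthest from the mean of the other animals in 5682 of 15866 probe sets (35.8%), against 4249 for rat 1, 2732 for rat 2 and 2236 for rat 4, with 967 ties. Pairwise correlations of the arrays over probe sets, as a description, were 0.993 to 0.997. All 4 arrays came from 1 chip lot and were scanned on 1 day, in the order rat 1, rat 3, rat 2, rat 4. Whether RNA quality had a part in the differences of rat 3 was not tested, and results that rest on this animal are given with and without it.

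Most transcripts differed little between the animals. The median SD between rats was 0.0814 on the log2 scale, a factor of 1.06, and 0.0656 without rat 3. In 9245 probe sets (58.3%) the highest and the lowest rat lay within 0.2 of each other. In 107 probe sets, 0.674% of all, they differed by at least 1, and without rat 3 this held for 31 probe sets (0.195%). Leaving out rat 1, 2 or 4 instead gave 90, 72 and 95 probe sets (0.567%, 0.454% and 0.599%). Counted as genes by their brightest probe set, 49 of 10411 (0.471%) reached this range. The wide ranges lay at high signals: 65 of the 107 were very bright, 35 were bright but not very bright, and 6 and 1 were in the 2 quartile groups below the median. An SD over 4 animals has 3 degrees of freedom, so its 95% interval runs from 0.566 to 3.73 times the estimate.

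**Figure D1:**
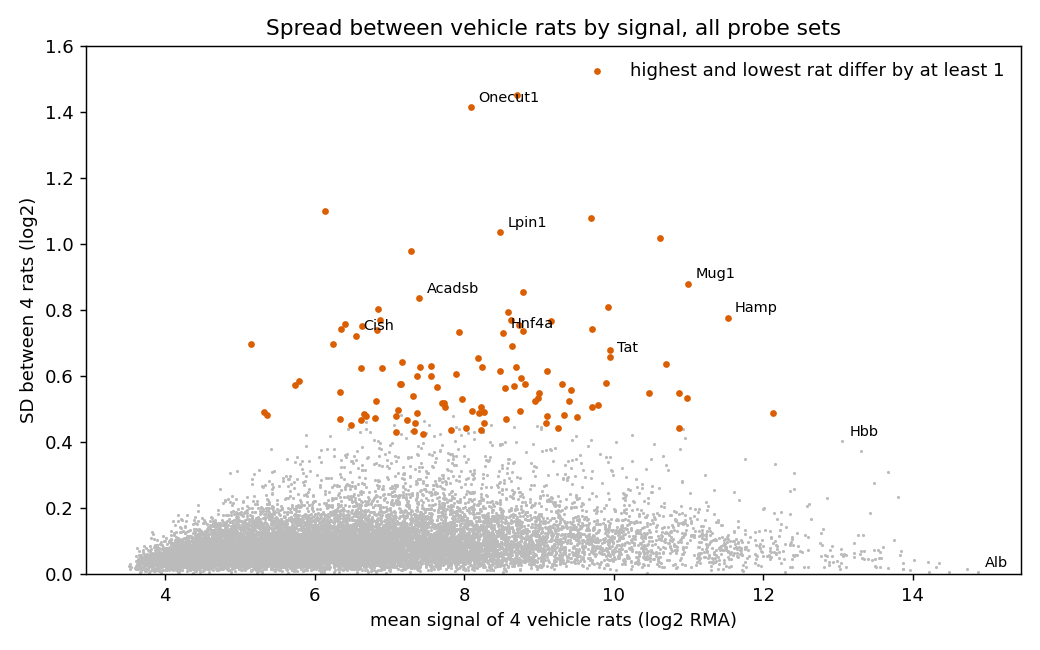
SD between the 4 vehicle rats (vertical axis, log2 units) against the mean signal (horizontal axis, log2 RMA) for each of 15866 probe sets. The 107 orange points are probe sets whose highest and lowest rat differ by at least 1; 10 genes are named beside their points, from Alb with an SD of 0.0058 to Onecut1 with 1.41.

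Hepatocyte transcripts filled the top of the signal range and were nearly the same in all 4 animals. Of 12 hepatocyte markers, 11 were measured, and 11 of these were very bright, with a median signal of 13.5 and a median SD of 0.0424, against a median SD of 0.0829 over all genes. Alb, the main carrier protein of plasma, had signals of 14.88, 14.87, 14.87 and 14.88 in rats 1 to 4 (SD 0.0058). It was the brightest probe set on 4 of 4 arrays. Quantile normalization gives probe values of equal rank the same signal before probes are summarised, so part of this evenness can be built in. Hp, which binds free haemoglobin, read 14.29, 14.32, 14.34 and 14.32. Ttr, the carrier of thyroxine and retinol, read 13.98, 14.04, 14.07 and 13.99. Both stayed within 0.1 between animals. Apoa1, the main protein of high-density lipoprotein, read 13.20, 13.58, 13.59 and 13.37, with rat 1 lowest. Crp, a pentraxin that in rat liver is made without inflammation, read 13.59, 13.56, 13.08 and 13.71. Crp was thus even in rats 1, 2 and 4 and low in rat 3 (SD 0.278). The 15 genes with the highest mean also held Apoe of lipoprotein remnants, complement C3, the vitamin D carrier Gc, Ahsg (fetuin), Apoc3, the protease inhibitors Serpina1, Pzp and Itih3, Cyp2e1, Rup2 and the mitochondrially encoded cytochrome oxidase subunits COX1 and COX2.

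The promoter of Alb is shown because it carries, beside the common CCAAT motif, a binding motif of HNF1, a factor of hepatocytes. It is the RefSeq window from 250 bases before to 50 after the annotated start, on the minus strand at chr14:17906930-17907229 of GRCr8, read 5′ to 3′, with GTTAAT, the core of an HNF1 site, and CCAAT, on either strand, in capitals.
Alb: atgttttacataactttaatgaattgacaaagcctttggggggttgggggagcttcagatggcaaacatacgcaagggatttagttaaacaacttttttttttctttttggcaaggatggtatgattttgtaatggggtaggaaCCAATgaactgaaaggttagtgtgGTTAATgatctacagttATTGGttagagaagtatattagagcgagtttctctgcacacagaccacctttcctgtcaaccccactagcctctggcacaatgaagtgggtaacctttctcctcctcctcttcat
GTTAAT began 82 bases and CCAAT 106 and 65 bases before the start, and the matches do not overlap. The motifs searched, on both strands, were chosen after values had been seen, as were the windows shown. GTTAAT was in 7.45% of all 33469 windows, in 4.8% of 9498 windows of genes on the chip and in 19.5% of 87 windows of the 100 brightest genes. The corresponding shares were 14.2%, 8.83% and 21.8% for TATAAA, the TATA box, and 3.78%, 2.34% and 9.2% for TGTTTAC, a forkhead (FOX) site. For CCAAT they were 37.5%, 37.1% and 43.7%, for TTCNNNGAA, the STAT site, 8.87%, 6.95% and 11.5%, and for TGTTCT, a core of glucocorticoid receptor sites, 20.7%, 13.3% and 23.0%. For CACGTG, the E-box, they were 6.42%, 8.68% and 6.9%, and for GGCGCC, found in response elements to bone morphogenetic proteins, 11.02%, 19.8% and 5.75%. These shares are descriptions of letters in windows, with no test.

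Among the other cells of the liver, Kupffer cells and sinusoidal endothelium were visible, while markers of blood leukocytes were mostly dim. Of 11 Kupffer cell markers 7 were measured, and 7 of these were bright. Clec4f, a lectin of resident liver macrophages, read 9.92, 9.74, 9.88 and 9.81, and the complement subunit C1qa read 9.43, 9.15, 9.44 and 9.22. The mean deviation of the 7 genes from the mean of the animals was 0.12 in rat 1 and -0.11 in rat 2. Of 4 measured endothelial genes, 3 were very bright: Kdr, the receptor of vascular endothelial growth factor (mean 9.44), the Fc receptor Fcgr2b (8.81) and the hyaluronan receptor Lyve1 (8.09). Of 11 lymphocyte genes measured, 1 was bright, Cd4 with a mean of 7.09, and of 3 neutrophil genes 0 were; S100a8 had a mean of 3.90.

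Stellate cell and matrix genes differed more between animals than hepatocyte genes. The median SD of 10 measured genes was 0.194, against 0.0829 over all genes. Rat 2 alone was lowest in 5 of them (50% against 19.5% of all genes), with a mean deviation of -0.19, and rat 1 alone was highest in 7 (70% against 27.9%), with 0.15. Col3a1, a fibrillar collagen chain, read 11, 10.08, 10.39 and 10.68 in rats 1 to 4, and Col1a2, another, 7.48, 6.55, 6.90 and 7.18. Lrat, which stores retinol as ester in stellate cells, read 6.88, 6.35, 6.85 and 6.80. Rats 1 and 2 were the ends of the order for these 2 collagens, and rat 2 was lowest for these 3 genes. Col1a1, another collagen chain of the list, read 7.17, 6.74, 6.87 and 6.73, with rat 4 lowest. Acta2 and Lum were lowest in rat 1 and Des in rat 4.

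The 2 very bright erythroid transcripts differed between animals in 1 order. Hbb, the beta chain of haemoglobin, read 13.60, 12.96, 13.04 and 12.63, and Alas2, which starts haem synthesis in red cell precursors, 9.41, 8.58, 8.65 and 8.02. For both genes rat 1 was highest and rat 4 lowest, with ranges of 0.97 and 1.39. The other 3 measured members had SDs of 0.0822 for the globin chaperone Ahsp, 0.0954 for the anion exchanger Slc4a1 and 0.0383 for the erythropoietin receptor Epor, and did not repeat this order. Ahsp was highest in rat 3 and lowest in rat 2, and Slc4a1 and Epor were lowest in rat 3. Slc4a1 was highest in rat 1, as were Hbb and Alas2, so rat 1 alone was highest in 3 of 5 genes (60% against 27.9% of all genes). The probe set of Hbb can also bind transcripts of related globin genes.

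Markers of organs other than the liver served as a check of the label. The 48 measured genes of neurons, testis, kidney, pancreas and striated muscle had a median signal of 5.43. Of these, 10 were bright, against 6059 of all 10411 genes, and 1 was very bright, against 3161. That gene was Myh1, a myosin heavy chain of fast muscle in the chip's annotation, with a mean of 10.77 for its brightest probe set and similar values in all 4 animals (SD 0.0763). The annotation gives Myh1 5 probe sets, and only the brightest is described here. Whether this probe set reads Myh1 could not be checked, since the probe sequences were not used here, so its signal is not taken as a level of that gene. The other markers of striated muscle were dim. Xist, the transcript that silences an X chromosome in females, had a mean of 3.99, and Sry of the Y chromosome 4.72, both dim.

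**Figure D2:**
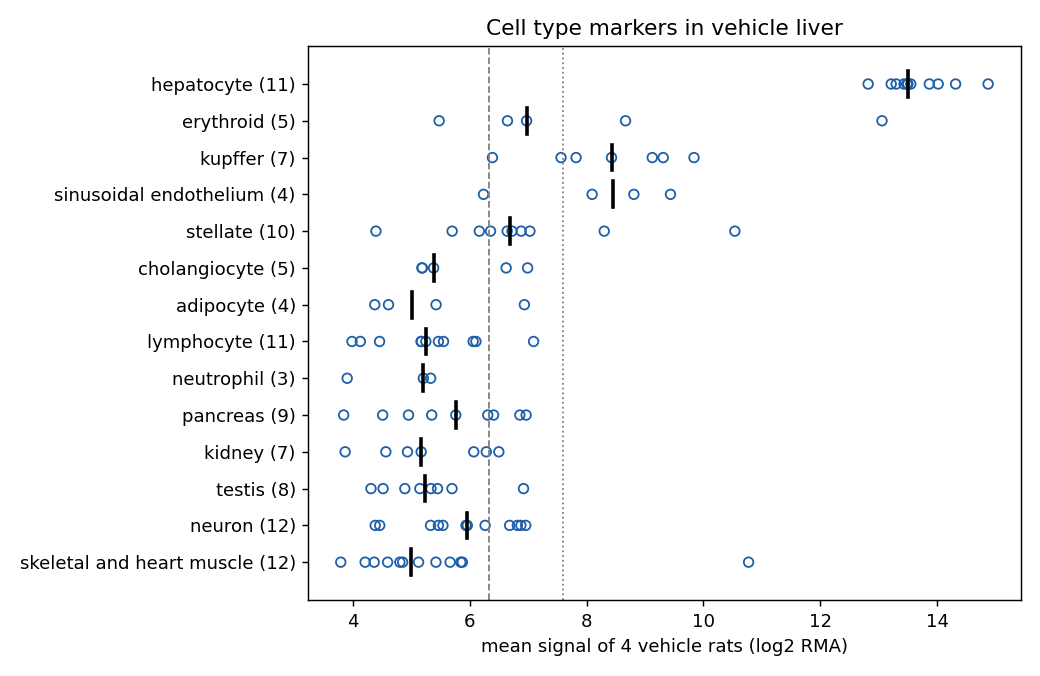
Mean signal over 4 vehicle rats (horizontal axis, log2 RMA) of the marker genes of 14 cell types, with the number measured in brackets. Circles are genes, black bars list medians, the dashed line the median (6.33) and the dotted line the upper quartile (7.59) of all probe sets. The 11 hepatocyte markers all lie at 12.82 or above.

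Genes of drug metabolism and of plasma proteins were mostly bright. Median SDs lay near that of very bright genes for drug metabolism and complement, and below it for plasma carrier, apolipoprotein and coagulation genes. Of 37 measured cytochrome P450 and partner genes, 32 were very bright, and the median SD was 0.0947, against 0.0829 over all genes and 0.0963 over very bright genes. None of the 37 had a range of at least 1, which at a share of 0.471% over all genes does not set the list apart. The male-specific Cyp2c11 read 13.02, 12.99, 13.02 and 13.05, and Cyp2c13, also male-specific in rats, 12.61, 12.62, 12.57 and 12.61. Cyp2e1, which oxidises ethanol, had a mean of 13.60 (SD 0.0814). Within this list the largest SD was that of Cyp2j3, a fatty acid epoxygenase, at 9.06, 9.22, 9.99 and 9.50 (SD 0.408), highest in rat 3. The 25 measured conjugation genes had a median SD of 0.108, and Gsta3, a glutathione transferase, the largest, at 7.04, 6.21, 7.08 and 6.42 (SD 0.439). Probe sets of such families can bind more than 1 member. Median SDs were 0.0499 for 13 plasma carrier genes, 0.0658 for 12 apolipoprotein genes, 0.0793 for 13 coagulation genes and 0.0917 for 12 complement genes. Apoa4, of intestinal and hepatic lipoproteins, was the most variable apolipoprotein at 10.62, 10.06, 10.89 and 10.42. The 10 genes with the smallest SD among the very bright were Cnbp (SD 0.005), Alb, Aldh7a1, Rhog, Ap2b1, Rdh7, Wdr5, Rnps1, Ift20 and Qdpr (SD 0.0126). Values were deposited to 2 decimals, so SDs of this size amount to the last digit.

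Transcripts of hepatocyte regulators had larger SDs than those of the proteins it exports. The median signal was 7.85 for the regulators and 13.5 for the hepatocyte markers, so these SDs were not compared at equal signal. Whether signal had a part in the difference was not tested. Of 27 measured liver transcription factors, 5 had a range of at least 1, against 0.471% of all genes, and the median SD was 0.174, or 0.12 without rat 3. Without rat 3 the count was 1, Onecut1, against 0.192% of all genes. Onecut1 (HNF6), a factor of hepatocyte and bile duct identity, had the largest SD of any named gene. It read 7.48, 6.45, 9.65 and 8.80 in rats 1 to 4, a 9.19-fold range, with an SD of 1.41 (95% interval 0.801 to 5.27) and of 1.18 without rat 3. Its other probe set gave the same order of low and high animals, at 6.98, 6.03, 8.10 and 8.02. Rats 3 and 4 were thus above rats 1 and 2 on both. The other 4 were Hnf4a, Foxa2, Foxa3 and Xbp1. Foxa2, a pioneer factor, read 8.24, 7.74, 8.86 and 8.23, and its relative Foxa3 7.83, 8.27, 6.92 and 7.51. Rat 3 was highest for Foxa2 and lowest for Foxa3, and rat 2 was at the opposite end of both. By contrast Nr1h4 (FXR), the bile acid receptor, read 8.76, 8.72, 8.68 and 8.66.

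Among the 30 genes with the largest SD among the bright, orders of the animals recurred. In 12 of them rats 3 and 4 were above rats 1 and 2, an order seen in 14.7% of all genes. Lpin1, a phosphatidate phosphatase and coactivator of fasting genes, read 7.62, 7.73, 9.84 and 8.74. Hhex, a homeobox factor of liver development, read 9.29, 9.20, 10.86 and 10.33. Foxo3, a forkhead factor held back by insulin signalling, read 7.91, 8.08, 9.55 and 8.97. Klf9, a zinc finger factor induced by glucocorticoids and thyroid hormone, read 8.43, 8.63, 10.06 and 9.53. For these 4 genes rat 3 was highest, rat 4 second, and rats 1 and 2 lay within 0.3 of each other. Xbp1, of the unfolded protein response, read 10.62, 10.47, 11.62 and 11.21, and Net1, which activates the GTPase RhoA, 8.47, 8.21, 9.45 and 9.14. Atxn7l1, Eif4ebp3, Hamp, Lurap1l, Cish and Onecut1 had the same order. The other probe set of Atxn7l1 had a range of 0.2 against 1.65. Without rat 3, 14 of the 30 genes still had a range of at least 1, among them Onecut1, Lpin1, Hhex, Foxo3, Klf9, Hamp and Cish.

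In 9 of the 30, rat 3 was lowest and the other animals lay within 0.5 of each other. With no limit on the other animals, rat 3 alone was lowest in 29.2% of all genes and in 24.2% of bright ones. The count by itself thus does not set the 30 apart. Mug1, a murinoglobulin that traps proteases in plasma, read 11.43, 11.41, 9.68 and 11.48, with an SD of 0.881, or 0.0361 without rat 3. Acadsb, an acyl-CoA dehydrogenase of branched chains, read 7.72, 7.89, 6.15 and 7.84. Lman1, a cargo receptor between endoplasmic reticulum and Golgi, read 8.20, 8.19, 6.98 and 8.19. Rat 3 alone set the spread of these 3 genes. Hnf4a, a nuclear receptor central to hepatocyte identity, read 8.86, 9.01, 7.44 and 8.79, and its other probe set 8.15, 8.24, 7.33 and 8.12. Cav2 of caveolae, A1cf of Apob mRNA editing, Golph3 of the Golgi, Id2, an inhibitor of DNA binding by basic helix-loop-helix factors, and Sec14l2, a lipid-binding protein, shared the pattern. The other probe set of Id2 repeated it, with a deviation of -0.883 of rat 3 from the mean of the others. That of Sec14l2, nearly as bright (mean 8.81 against 8.95), did not, with a range of 0.07. Over all 107 wide probe sets rat 3 was the farthest animal in 74, lowest in 58 and highest in 32.

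**Figure D3:**
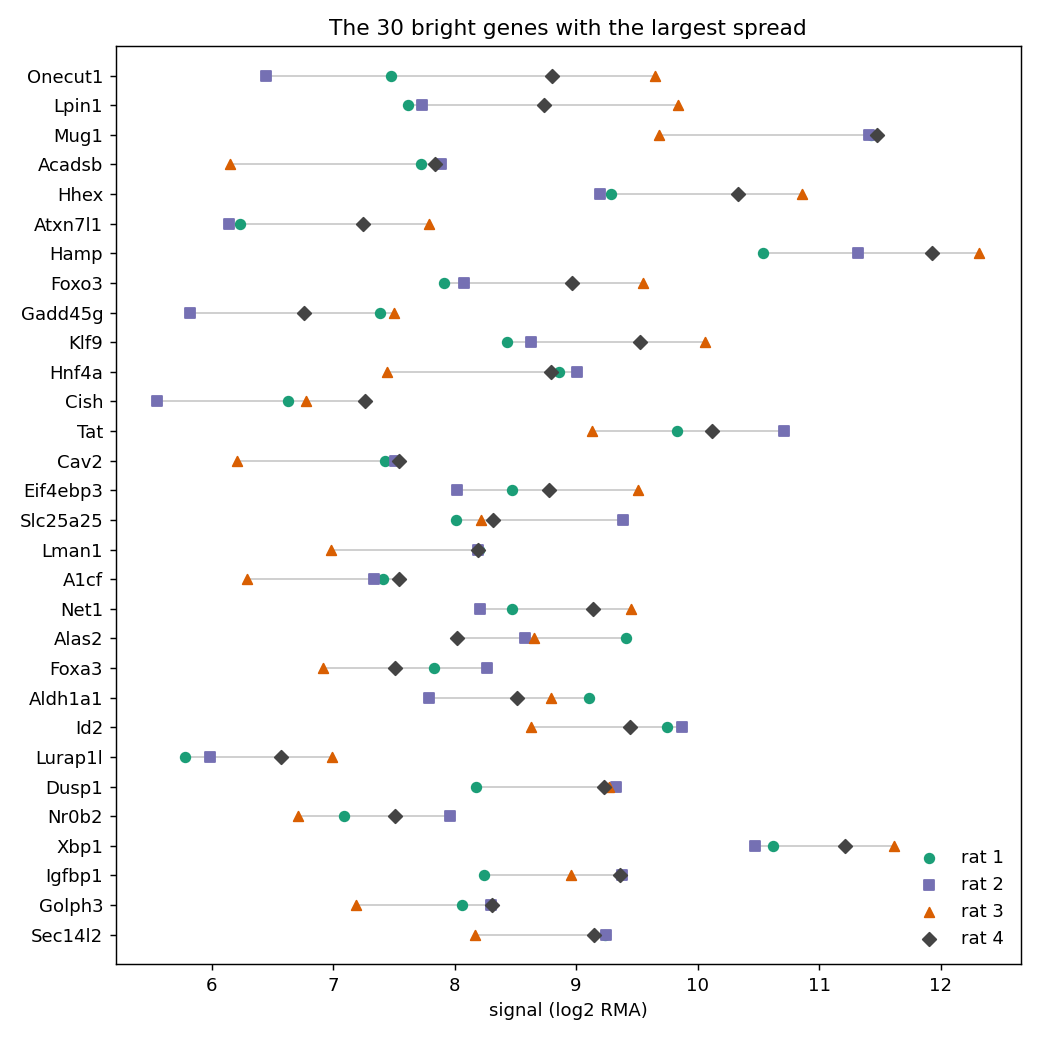
Signal (log2 RMA) in each of 4 vehicle rats for the 30 genes with the largest SD among the bright, ordered by SD from Onecut1 (1.41) down to Sec14l2 (0.524). Markers are single rats and grey lines span their range; the orange triangle of rat 3 is at an end of most lines.

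A gene's other probe sets, read on the same arrays, did not always repeat the pattern. This comparison and its limits were chosen after values had been seen, and took wide probe sets with a bright second probe set of the same gene. Of 30 probe sets that were low in rat 3, 5 had such a partner with at least 0.5 of the deviation and 21 had partners with under 0.25 of it. Gpd1, a glycerol phosphate dehydrogenase, read 9.12, 9.09, 7.60 and 9.11 on 1 probe set and 10.05, 10.20, 10.20 and 10.17 on the brighter one. St6gal1, a sialyltransferase of plasma proteins, read 9.23, 9.21, 7.51 and 9.22 against 11.12, 11.18, 11.21 and 11.08. For both genes rat 3 was low on the dimmer probe set and level with the others on the brighter one. Partners with at least 0.5 of the deviation were seen for 6 of 10 probe sets whose farthest animal was another rat and for 2 of 5 that were high in rat 3. The 30 probe sets were of 29 genes and the 10 of 8 genes. Wide probe sets of 1 gene, as for Id2, Ccnd1 and Onecut1, were partners of each other, so these counts are not of independent genes. The 6 were of Ccnd1, Col1a1, Il6st and Onecut1, and the 2 of Il6st and Spink1. Il6st (gp130), the signalling chain of the interleukin-6 receptor, was among them, with readings of 9.37, 9.22, 10.32 and 9.92, of 9.17, 9, 9.65 and 9.46, and of 8.89, 8.56, 9.64 and 9.35. Rats 3 and 4 were above rats 1 and 2 on all 3 probe sets of Il6st. Foxo3 did not repeat its order on its dimmer probe sets, where rat 3 read 4.91 and 5.77, below the other animals. Klf9 read 6.76, 6.68, 7.00 and 7.41 on its second probe set, with rats 3 and 4 again above rats 1 and 2, but 5.08, 5.17, 4.98 and 5.09 on its dimmest one, where rat 3 was lowest. Gpd1, St6gal1 and Il6st were picked after their values were seen.

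Cish, Socs2, Gadd45g and Onecut1 were lowest in rat 2, while the list of growth hormone and sex-specific genes as a whole did not place this animal apart. Cish, an inhibitor of cytokine signalling that STAT5 induces soon after a hormone pulse, read 6.63, 5.55, 6.78 and 7.26 (SD 0.722, 95% interval 0.409 to 2.69), so rat 2 lay lowest. Socs2, another such inhibitor, read 5.93, 5.23, 5.96 and 5.93, with rats 1, 3 and 4 within 0.1 of each other. Gadd45g, a stress and growth arrest gene, read 7.39, 5.82, 7.50 and 6.76, again lowest in rat 2, as was Onecut1, which growth hormone induces in rat liver. The grouping of these 4 genes was noticed in the data and was not tested. Igf1, the main endocrine product of the axis, read 12.35, 12.36, 12.39 and 12.34 (SD 0.0216), and the receptor Ghr 9.77, 9.95, 9.90 and 10.01. Cyp2c12, specific to female rats, lay near the median signal of all probe sets and was highest in rat 2, at 6.53, 7.11, 6.53 and 6.35. Over the 24 measured genes of the axis and of sex-specific liver expression, 2 had a range of at least 1 (Cish and Igfbp1), against 0.471% of all genes, the median SD was 0.127, and rat 2 alone was lowest in 6, 25% against 19.5% of all genes, with a mean deviation of -0.05. Without rat 1 that median SD was 0.0597, and 1 gene, Cish, had a range of at least 1.

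The promoter of Cish is shown because STAT sites recur in it. It is the RefSeq window on the plus strand at chr8:116850719-116851018 of GRCr8, with TTCNNNGAA in capitals.
Cish: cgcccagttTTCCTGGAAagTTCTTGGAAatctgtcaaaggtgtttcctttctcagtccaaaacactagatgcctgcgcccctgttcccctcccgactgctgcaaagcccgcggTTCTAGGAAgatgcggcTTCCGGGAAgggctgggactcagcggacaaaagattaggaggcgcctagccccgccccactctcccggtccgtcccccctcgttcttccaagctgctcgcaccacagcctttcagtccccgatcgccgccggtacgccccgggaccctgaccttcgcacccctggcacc
The window held 4 matches, beginning 241, 230, 136 and 119 bases before the start, and 2 of 33469 windows held at least 4. Windows of this kind were matched for 281 of the 342 genes chosen for description.

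Rat 1 was low in many very bright genes, periportal genes among them. It alone was lowest in 24.9% of all genes and in 39.2% of the 3161 very bright genes. Of 15 measured periportal genes, all very bright, it was lowest in 11 (73.3%), with a mean deviation of -0.17, and of 25 genes of urea and amino acid metabolism, also all very bright, in 13 (52%), with -0.13. The urea list shares 7 genes with the periportal one. The lean was not particular to these lists: rat 1 alone was also lowest in 27 of 47 respiratory chain genes (57.4%), 15 of 26 ribosomal protein genes (57.7%) and 13 of 22 proteasome genes (59.1%), with mean deviations of -0.07, -0.05 and -0.09. Sds, a serine dehydratase that feeds gluconeogenesis, read 9.05, 9.88, 10.17 and 10.08. Pck1, which commits carbon to gluconeogenesis, read 12.28, 12.66, 12.68 and 12.73. Asl of the urea cycle read 9.84, 10.25, 10.16 and 10.31, and the aminotransferase Got1 9.98, 10.53, 10.51 and 10.72. Rat 1 was below all the others in each of these 4. Without rat 1 the median SD of the periportal list was 0.0361, against 0.119 with it. Exceptions were Cps1, the first enzyme of the urea cycle, lowest in rat 3 at 12.05, and Tat, a tyrosine aminotransferase induced by glucocorticoids, at 9.83, 10.71, 9.13 and 10.12, where rat 3 was lowest and rat 2 highest.

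Glucocorticoid-responsive genes leaned the same way. Of 19 measured, rat 1 alone was lowest in 10 (52.6% against 24.9% of all genes and 39.2% of very bright ones, to which 15 of the 19 belong). The mean deviation of rat 1 was -0.23 and the median deviation -0.12. Tat, Klf9, Dusp1 and Igfbp1, 4 of the 19, had a range of at least 1, against 0.471% of all genes. Without rat 1 this held for Tat and Klf9, 2 of the 19, against 0.365%. Dusp1, a phosphatase of MAP kinases, read 8.18, 9.33, 9.27 and 9.23, and its dimmer probe set 5.49, 6.23, 5.12 and 6.33, on which rat 3 was low as well. Igfbp1, a binding protein of insulin-like growth factors that insulin represses, read 8.24, 9.38, 8.96 and 9.36. Tsc22d3 (GILZ) read 7.73, 8.30, 8.41 and 7.78, while Per1 was even at 8.12, 8.03, 8.14 and 8.07, as was Fkbp5 with a mean of 5.60 (SD 0.080). In the cell cycle list Ccnd1 (cyclin D1) was lowest in rat 1 as well, at 7.93, 8.98, 8.47 and 8.84.

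Pericentral genes had the opposite lean, with a mean deviation of 0.13 in rat 1, 0.06 in rat 4, -0.08 in rat 2 and -0.11 in rat 3. Of 15 measured genes rat 1 alone was highest in 6 (40% against 27.9% of all genes) and rat 2 alone lowest in 9 (60% against 19.5%). The median deviation of rat 1 was 0.065, below its mean deviation, to which Cyp7a1 and Glul gave the most. Glul, the glutamine synthetase of the cells around the central vein, read 11.46, 10.56, 10.58 and 11.13. Its probe sets differed in the deviation of rat 3 from the mean of the others. This was -0.47 on the brightest one, and 0.0433 and -1.34 on the others (means 10.66 and 9.715). Cyp7a1, which sets the rate of bile acid synthesis, read 10.10, 9.51, 8.92 and 9.10, and Nr0b2 (SHP), a repressor of Cyp7a1, 7.09, 7.96, 6.71 and 7.51. Rat 1 was highest for Glul and Cyp7a1. Cyp2e1, at 13.62, 13.53, 13.55 and 13.71, showed little of this.

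**Figure D4:**
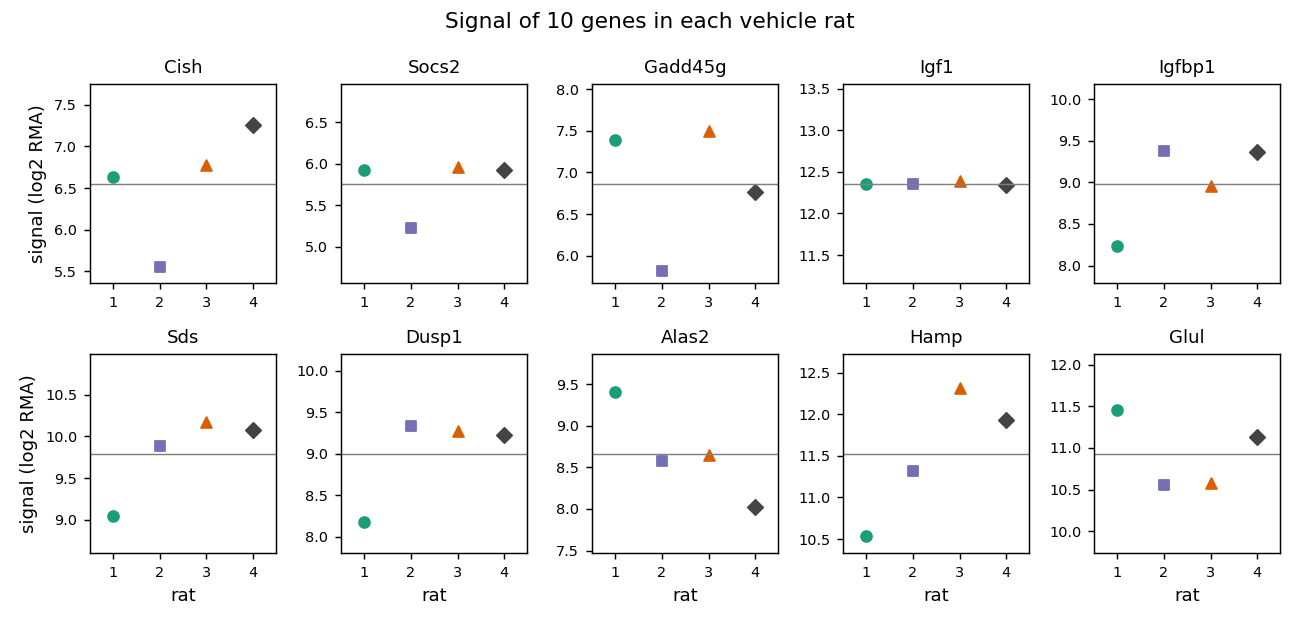
Signal (log2 RMA, vertical axes, each spanning 2.4 units) of 10 genes in vehicle rats 1 to 4, with the mean as a grey line. Rat 2 is lowest for Cish, Socs2 and Gadd45g, Igf1 is flat, rat 1 is lowest for Igfbp1, Sds, Dusp1 and Hamp, and rat 1 is highest for Alas2 and Glul.

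Genes of fatty acid and sterol synthesis split the animals in another way. In 17 of 29 measured genes (58.6%) rats 1 and 3 were both above rats 2 and 4, an order seen in 15.9% of all genes. This order was noticed after values had been seen. Idi1, an isomerase of the mevalonate pathway, read 8.01, 7.37, 8.06 and 7.35. Cyp51, the sterol demethylase, read 9.58, 9.30, 9.94 and 9.15, and Fdft1 (squalene synthase) 9.05, 8.60, 9.33 and 8.73. Sqle, the squalene epoxidase that follows it, read 7.36, 7.07, 7.48 and 6.80, and Acly, which supplies cytosolic acetyl-CoA, 9.53, 9.08, 9.80 and 9.13. In each of these 5 genes the lower of rats 1 and 3 exceeded the higher of rats 2 and 4. Fasn, the fatty acid synthase, had the order too, at 9.29, 8.95, 9.09 and 8.73. Thrsp, a lipogenic gene that follows carbohydrate feeding, was highest in rat 1, at 10.75, 10.01, 10.19 and 10.05. Srebf1, which encodes the transcription factor SREBP-1, did not share it, at 11.10, 11.23, 10.37 and 10.83. The list's median SD was 0.187, or 0.144 without rat 3. Of its genes 0 had a range of at least 1, which at a share of 0.471% over all genes does not set the list apart. The labels do not say which animals shared a cage, so cage could not be compared with this order. Sqle, Fdft1 and Fasn were named after their values were seen.

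With all 4 rats counted, iron and metal genes varied more between animals than most genes, and the hormone of iron balance varied most. Of 19 measured, 5 had an SD of at least 0.2 (26.3% against 5.68% of all genes), namely Hamp, Slc30a1, Tfrc, Alas1 and Slc40a1. Among bright genes, to which 16 of the 19 belong, the share was 8.29%. Without rat 3 the SDs of Slc30a1 and Slc40a1 were 0.0874 and 0.0153. The list's median SD was 0.11 against 0.0829 over all genes, and without rat 3 it was 0.0702 against 0.0666. Hamp encodes hepcidin, which blocks iron export and is induced by bone morphogenetic proteins and by interleukin-6. It read 10.54, 11.32, 12.32 and 11.93 in rats 1 to 4, a 3.43-fold range, and had an SD of 0.776 (95% interval 0.44 to 2.89) and of 0.697 without rat 3. Rat 1 was lowest and rat 3 highest. Its inducer Bmp6 had a mean of 6.20 (SD 0.034), and 2 genes that answer to the same pathway differed less, with Id1 at 6.91, 6.45, 6.65 and 6.67 and Smad7 at 5.86, 6.04, 6.11 and 5.99. Rat 1 was lowest and rat 3 highest for Smad7 as well, whereas rat 1 was highest for Id1. Tfrc, the transferrin receptor, read 9.77, 9.59, 9.03 and 9.33, and Slc40a1 (ferroportin) 9.46, 9.47, 9.02 and 9.49. The order of Tfrc was the reverse of that of Hamp in the 4 animals. Alas1, which starts haem synthesis in the liver, read 10.10, 9.44, 9.83 and 9.48, with rat 1 highest. Hamp was the 1 gene of the list with a range of at least 1 (5.26% against 0.471% of all genes).
The promoter of Hamp is shown because motifs of both inducing pathways lie close together in it. It is the RefSeq window on the minus strand at chr1:95300222-95300521 of GRCr8, with TTCNNNGAA and GGCGCC in capitals, which begin 117 and 129 bases before the start and do not overlap.
Hamp: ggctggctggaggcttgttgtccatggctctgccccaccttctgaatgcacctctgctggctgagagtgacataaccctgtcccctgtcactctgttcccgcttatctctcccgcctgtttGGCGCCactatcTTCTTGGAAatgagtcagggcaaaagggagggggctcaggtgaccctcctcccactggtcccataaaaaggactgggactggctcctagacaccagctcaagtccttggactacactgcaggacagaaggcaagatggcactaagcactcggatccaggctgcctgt

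Metallothionein and copper genes were not all alike. Mt2A, which binds zinc and copper, read 11.91, 11.85, 12.06 and 11.99, and Mt1, another metallothionein, 6.94, 7.21, 7.29 and 7.32 (SD 0.173), lowest in rat 1. Atp7b, the copper pump of hepatocytes, had a mean of 7.77 (SD 0.0776), and Cp (ceruloplasmin) 12.29 (SD 0.0922). Slc31a1, the copper importer, read 9.58, 9.60, 9.91 and 9.56 (SD 0.166) on its brightest probe set, with rat 3 highest, whereas on a dimmer one rat 3 was lower than the mean of the others by 1.46. Slc30a1, a zinc exporter, read 6.73, 6.90, 6.07 and 6.85 (SD 0.385, or 0.0874 without rat 3), with rat 3 lowest.

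Of 23 measured acute phase genes, 18 were very bright, and rat 1 alone was lowest in 11 (47.8% against 39.2% of very bright genes), with a mean deviation of -0.10. Rat 3 alone was highest in 8 (34.8% against 49.3%), with 0.07. The median SD was 0.0922, or 0.0557 without rat 1. In this list 1 gene, Hamp, had a range of at least 1 (4.35% against 0.471% of all genes). The fibrinogen chains Fga, Fgb and Fgg had SDs of 0.0216, 0.061 and 0.0245. Lcn2 and Socs3, which are induced strongly in inflammation, lay near the median signal of all probe sets and were even, with means of 6.36 (SD 0.0497) and 6.49 (SD 0.0294). A2m, the major acute phase protein of rats, was near the median signal, at 6.34, 6.42, 6.80 and 6.01. Orm1 read 12.71, 12.32, 12.81 and 12.64, and Il6r, the receptor of interleukin-6, 7.71, 8.04, 8.47 and 8.11, the latter highest in rat 3.

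Genes of the circadian clock, whose levels depend on the hour, had somewhat larger SDs than most genes. The median SD of 15 measured genes was 0.126, against 0.0829 over all genes, and 3 had an SD of at least 0.2 (20% against 5.68%). None had a range of at least 1, which at a share of 0.471% over all genes does not set so short a list apart. Per2, a repressor within the clock, varied most, at 6.73, 6.73, 6.25 and 6.29, with rats 3 and 4 low. Nr1d1 (REV-ERB alpha) read 6.93, 6.73, 6.74 and 7.24, Bhlhe40 5.26, 5.21, 5.49 and 5.74, and Nr1d2 6.93, 6.96, 7.05 and 7.34, each highest in rat 4. Bmal1, the activator, read 7.14, 7.17, 7.05 and 7.32, and Dbp, a clock output, 5.59, 5.41, 5.55 and 5.72. The largest of these differences was under 0.6. Of 26 measured immediate early genes, 12 were bright, against 6059 of all 10411 genes. Their median SD was 0.118, and 6 had an SD of at least 0.2 (23.1% against 5.68%). Gadd45g and Dusp1 had a range of at least 1 (7.69% of the list against 0.471% of all genes). Ier2, an early response gene, read 6.33, 5.96, 6.82 and 6.53, and Egr1, a zinc finger factor, 8.47, 8.02, 7.74 and 8.17. Rat 3 was highest for Ier2 and lowest for Egr1. Fos (mean 5.89, SD 0.0568) and Atf3 (4.55, SD 0.0909), picked after their values were seen, were dim.

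Housekeeping genes showed a small shift of rat 3 upward and, as given above, one of rat 1 downward. Rat 3 was highest in 41 of 47 genes of the respiratory chain, with a mean deviation of 0.15, in 22 of 26 ribosomal protein genes (0.11) and in 15 of 22 proteasome genes (0.09). Over all genes rat 3 alone was highest in 30.9%, with a mean deviation of 0.01, over bright genes in 40.1%, with 0.03, and over very bright genes, to which most of these belong, in 49.3%. Without rat 3 the median SD of the respiratory chain genes was 0.0451 in place of 0.101, that of the ribosomal protein genes 0.0402 in place of 0.0837, and that of the proteasome genes 0.0532 in place of 0.101, or 0.0659 without rat 1. Rat 3 is the animal with the larger difference between 3' and 5' controls, and its part in these values was not tested. Genes of the heat shock and unfolded protein responses had mean deviations of -0.07 in rats 1 and 3 and of 0.09 in rat 2. Rat 2 alone was highest in 13 of 27 (48.1% against 21.3% of all genes), and rat 3 alone was lowest in 13 (48.1% against 29.2%).

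**Figure D5:**
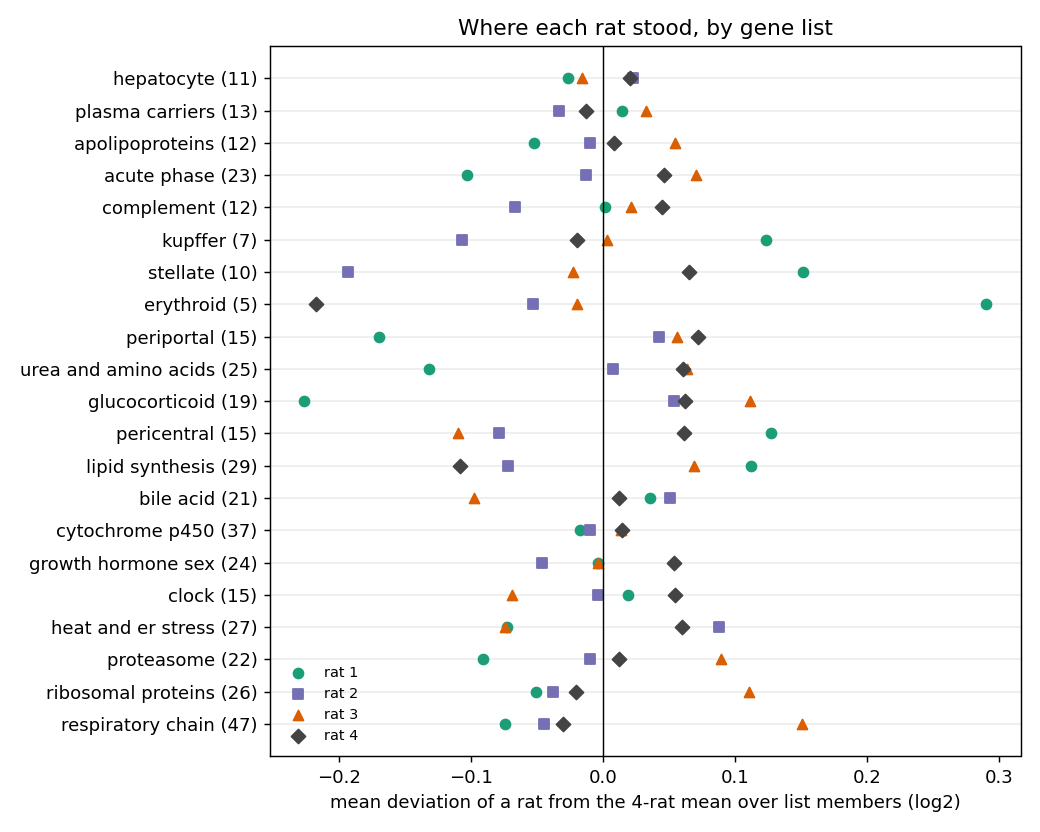
Mean deviation of each vehicle rat from the mean of the 4 animals (horizontal axis, log2 units) over the members of 21 gene lists, with the number measured in brackets. Rat 1 lies low for periportal (-0.17) and glucocorticoid (-0.23) genes and high for erythroid genes (0.29), rat 2 low for stellate genes (-0.19), and rat 3 high for respiratory chain genes (0.15).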

How the data were processed

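Liver RNA of 4 vehicle rats was measured on Affymetrix RAE230A arrays, 1 per rat. The deposited table holds log2 values to 2 decimals, made by the authors with RMA per the submitters' processing notes, which corrects background, normalizes arrays by quantiles and summarises probes, so that a shift of most transcripts in 1 direction cannot be seen. Neither the RMA version nor any filter is given in the sources used here. There is no detection call, and precision is limited by the number of arrays. The deposited scan records gave other facts only, namely chip lot, scan day and scan order, per the file headers. The columns of the 8 treated rats were not used.

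After 57 array controls were left out, 15866 probe sets stayed: 12783 with 1 gene symbol in the platform annotation (updated to GRCr8 through gene identifiers), 312 with several, which were not named, and 2771 with none. Groups and rat numbers came from the labels. Where nothing else is said, SD is the plain SD over n = 4. An intercept-only limma 3.58.1 fit with a trend (R 4.3.3) gave moderated SDs and was checked on simulated data. Intervals of an SD are 95% chi-square intervals. Nothing was tested between groups, and no list was tested: lists are given by counts beside those over all genes.

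Of 821 names in 42 gene lists, 655 were measured. The members and lists were chosen with earlier results of these data known. Genes were described by a rule: the 30 with the largest SD among bright genes, the 15 brightest, the 10 with the smallest SD among very bright genes, cell type markers, up to 4 per list by SD and by signal, and whole clock, iron, acute phase and sex chromosome lists, 342 in all. Outside it, Atf3, Fasn, Fdft1, Fkbp5, Fos, Foxa2, Ghr, Got1, Gpd1, Il6st, Sqle, St6gal1, Thrsp and Tsc22d3 were chosen after their values were seen, as were orders of animals noticed in the data. Alternatives were leaving out each rat, median centring, a further quantile normalization, dropping dim probe sets, averaging probe sets and other measures of spread.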

Additional observations from a re-analysis of the deposited data

Results flagged for a closer look

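A Dixon ratio, the gap between the outermost animal and its neighbour divided by the range of all 4, was above the 95% critical value for 4 samples in 35 of the 342 genes described (10.2%) and for 6.76% of all 10411 genes. Chance gives such a flag in about 1 of 20 groups, and the genes described were chosen partly for their spread. The outermost animal was rat 3 in 19 of the 35, rat 1 in 8, and rats 2 and 4 in 4 each.

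Rat 3 was far below the others for Lman1 (0.992), Mug1 (0.961), Cav2 (0.917), Sec14l2 (0.907), Acadsb (0.902), Hnf4a (0.86), Ahr (0.853) and A1cf (0.84), whose highest and lowest animals differ by over 1 on the log2 scale. It was lower by less for the iron exporter Slc40a1 (0.936), the bile acid importer Slc10a1 (0.917), glutathione reductase Gsr (0.915) and Nefl (0.889). It was higher for Rpl19 (0.917), Rpl21 (0.9), Slc31a1 (0.886), Rpl18 (0.885), Rps24 (0.885) and Cdkn1a (0.837). On their other probe sets, Sec14l2 and Ahr had ranges of only 0.07 and 0.04. The difference between 3' and 5' controls was 1.19 in rat 3 and at most 0.585 in the other animals, and its part in these values was not tested.

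Rat 1 was lower for Serpina3n (0.914), Dusp1 (0.913), Itih3 (0.9), Psmc5 (0.872), Itih4 (0.846), Pck1 (0.844) and Zfp36 (0.844). Rat 2 was lower for Socs2 (0.959), Psmb8 (0.9) and Lrat (0.849). Rat 4 was higher for C4bpa (0.833) and Slc12a1 (0.857) and lower for Cd3e (0.833). In Ap2b1, Cnbp, Rdh7 and Wdr5 the ratio was 1 because 3 animals had identical values and the last differed by 0.01 or 0.02, which is 1 or 2 steps of values deposited to 2 decimals.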

How the results depend on the processing

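No paired analysis was possible because the arrays form 1 group and no test was made. Here a count or a list's median SD is called changed when it moved by over 1.5 times. Leaving out each rat in turn gave 31 to 95 probe sets with a range of at least 1, against 107, with the low value without rat 3, and 65 among very bright probe sets alone, where fewer probe sets were counted. Rat 2 was then farthest in 3705 to 4594 and rat 4 in 3395 to 4339 probe sets, since 3 animals share the same probe sets. Among bright probe sets alone the counts of the farthest animal were 2045, 1258, 3278 and 964 for rats 1 to 4. Median SDs of lists without 1 rat ran from 0.0252 to 0.0493 (hepatocyte), 0.0686 to 0.186 (sinusoidal endothelium), 0.0289 to 0.11 (neutrophil), 0.0624 to 0.104 (kidney), 0.0702 to 0.133 (iron), 0.0402 to 0.0921 (ribosomal proteins), 0.0451 to 0.117 (respiratory chain) and 0.0532 to 0.114 (proteasome), each lowest without rat 3. They ran from 0.07 to 0.136 (Kupffer), 0.06 to 0.114 (cholangiocyte), 0.0557 to 0.0854 (acute phase), 0.0819 to 0.141 (urea and amino acids), 0.122 to 0.237 (glucocorticoid), 0.0597 to 0.138 (growth hormone) and 0.0361 to 0.142 (periportal), each lowest without rat 1. With dim probe sets dropped, medians were 0.0943 (endothelium), 0.249 (erythroid), 0.128 (pancreas), 0.127 (neuron) and 0.177 (immediate early), over fewer genes. Averaging a gene's probe sets gave 0.0504 for neuron genes. Median centring, a further quantile normalization and the moderated SD changed 0 of these counts and medians, and the median SD over all probe sets stayed between 0.0656 and 0.0933.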
